A study of Mus musculus with 12 samples.

Results

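Heme is made from glycine and succinyl-CoA by a chain of enzymes that starts and ends in the mitochondrion, and 8 genes of that chain were examined here: Alas1, Alas2, Alad, Uros, Urod, Cpox, Ppox and Fech. They were taken as every probe set of the array whose only gene symbol is one of these names. That gave 8 probe sets for 8 genes, 1 each, of 19938 genes with a symbol of their own. The genes were chosen by pathway with earlier results of these data known. Which values drew attention to them is not recorded; the earlier account named the change of Alas2 between the bulge sorts, clock-positive against clock-negative, and this is taken here as the value they were selected on. The bulge values are therefore described for these genes with no test, and the epidermis values are tested. If the epidermis values were also in view, those p-values are not independent of the choice. Hydroxymethylbilane synthase, the enzyme between Alad and Uros, was not analysed here.

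Aminolevulinate synthase makes the committed first step and is encoded by a pair of genes. ALAS1 is the form of most tissues and is held down by heme itself, while ALAS2, on the X chromosome, is the form of developing red blood cells and is known for its control by erythroid factors and by iron. Alas1 is also known as a gene under circadian control, and heme is in turn a ligand of the clock repressors NR1D1 and NR1D2.

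The arrays held 4 groups of 3 samples each of sorted mouse dorsal skin cells. Clock-positive and clock-negative bulge cells, stem cells of the hair follicle sorted for bright alpha6 integrin and CD34, came from mice 18 to 19 days old with the Per1-Venus transgene, whose fluorescence reports Per1, a gene of the clock, with about 20 mice per sample; the first group has bright and the second dim Venus. For clock-negative cells the labels repeat the Venus-high gate of the other group, so titles and series design decided which array is which. Basal cells of the interfollicular epidermis came from wild-type mice and from mice with an epidermal knockout (KO) of Bmal1 (gene symbol Arntl), all 1 year old, with 5 mice per sample. The promoter that drives the deletion and the genotype of the wild-type mice beyond that name are not given in the sources used here, and neither is the time of day of collection.

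The values are log2 intensities, and the 2 sets of 6 arrays were compared only within themselves because they appear to have been normalized apart. Array medians ran from 6.82 to 7.01 in the bulge set and from 7.75 to 7.80 in the epidermis set, and precision is limited by how few arrays there are. Chosen markers of the labelled cells were well above the dim limits given below in every group. Group means ran from 8.07 to 12.84 for Cd34, Krt15, Lgr5, Sox9 and Fgf18 in the bulge set. They ran from 12.52 to 13.62 for Krt5, Krt14 and Trp63 in the epidermis set. In each set the 30% of genes with the lowest mean were left out as dim, below 6.27 in bulge and 6.83 in epidermis. All 8 heme genes lay above these limits in both sets, on either side of each comparison. Arntl, the targeted gene, was not lower in the KO (9.85, 9.60 and 9.55 against 9.27, 9.47 and 9.34), and whether its probe set covers the deleted stretch was not analysed here. Nr1d1, a gene that BMAL1 drives, separated the genotypes, with 8.63, 8.39 and 8.44 in KO arrays 1 to 3 and 12.29, 12.52 and 12.60 in wild-type arrays 1 to 3.

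The upstream sequences of the synthase pair and of Alad are shown because the synthase pair is the contrast described first below, Alad had the largest positive change in the epidermis, and the study turns on clock factors, which bind the E-box. They are the 250 bases before the most upstream start site in RefSeq (GRCm38.p6), written 5' to 3' on the strand of the gene, with capitals for matches to the motifs searched. The windows are chr9:106247955-106248204 on the minus strand for Alas1, chrX:150547167-150547416 on the plus strand for Alas2 and chr4:62520064-62520313 on the minus strand for Alad.
Alas1: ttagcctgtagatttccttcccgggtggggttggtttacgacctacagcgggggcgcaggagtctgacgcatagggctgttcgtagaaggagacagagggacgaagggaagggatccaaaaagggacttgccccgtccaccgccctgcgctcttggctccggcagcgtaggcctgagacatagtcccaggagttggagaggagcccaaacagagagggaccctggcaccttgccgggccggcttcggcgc
Alas2: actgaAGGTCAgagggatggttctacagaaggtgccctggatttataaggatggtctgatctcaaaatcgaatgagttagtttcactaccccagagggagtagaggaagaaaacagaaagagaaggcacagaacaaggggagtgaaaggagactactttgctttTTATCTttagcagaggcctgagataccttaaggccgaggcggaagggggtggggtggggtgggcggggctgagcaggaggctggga
Alad: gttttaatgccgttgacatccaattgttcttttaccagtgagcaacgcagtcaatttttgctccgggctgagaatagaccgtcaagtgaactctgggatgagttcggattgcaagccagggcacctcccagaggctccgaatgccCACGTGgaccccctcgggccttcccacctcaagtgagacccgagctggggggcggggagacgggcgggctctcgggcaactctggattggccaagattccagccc
Searched on both strands were the E-box CACGTG, the D-box spellings TTATGTAA and TTACGTAA, the motif GATA with A or T before it and A or G after it, the palindromic NRF1 motif and the nuclear receptor hexamer AGGTCA. The Alas1 window held none of them. The window of a second annotated start of Alas1, further downstream, held the NRF1 motif, which 0.782% of the 32851 promoter windows of this length in RefSeq hold. The Alas2 window held 1 GATA match, written TTATCT on the strand of the gene, 86 bases before the start, and 1 AGGTCA 245 bases before it; 26.5% and 14% of windows hold these motifs. An E-box stood in the windows of Alad (105 bases before the start shown, and 28 before a second start), Urod (49 bases before its start) and 1 of the 2 starts of Uros, against 6.02% of all windows. Cpox held 2 GATA matches that overlap by a base, the other start of Uros held 2 that do not, Ppox held no match to any motif searched, and no D-box was found in any of these windows; Fech was not searched. A match is a description of letters, and none was tested as a site.

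In bulge cells the 2 synthase genes differed in opposite directions. Alas2 gave 7.46, 7.32 and 7.47 in clock-positive arrays 1 to 3 and 9.16, 8.97 and 8.98 in clock-negative arrays 1 to 3. Every clock-positive array was thus far below every clock-negative one, by 3.07-fold on average (log2 change -1.62 ± 0.08, SE of the fit, n = 3 per group). Of 13956 genes tested, 17 (0.122%) had a larger change in either direction. This is the value that drew attention to the genes and it is given as a description. Alas1 gave 8.80, 8.78 and 8.77 in clock-positive arrays and 8.39, 8.40 and 8.40 in clock-negative arrays. It was higher in clock-positive cells by 1.31-fold (0.39 ± 0.06), and its arrays lay very close together, with a within-group SD of 0.010 against a median of 0.0886 over all genes tested.

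Fech, the last enzyme, which puts iron into the porphyrin ring in the mitochondrion, was on the same side as Alas1. It gave 8.53, 8.46 and 8.39 in clock-positive arrays and 8.003, 7.99 and 8.11 in clock-negative ones, a difference of 0.43 ± 0.07 with no overlap. Urod, which removes carboxyl groups from uroporphyrinogen in the cytosol, gave 8.60, 8.61 and 8.52 against 8.34, 8.27 and 8.19, also with no overlap (0.31 ± 0.07). Uros, which closes the ring, lay slightly lower in clock-positive cells, with 7.51, 7.48 and 7.49 against 7.66, 7.67 and 7.53 (-0.13 ± 0.06). These groups did not overlap either, though the nearest arrays were close.

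The remaining enzymes overlapped between the sorts. Alad, which joins aminolevulinate molecules into porphobilinogen, ran from 8.99 to 9.07 in clock-positive and from 8.86 to 9.002 in clock-negative cells (0.09 ± 0.06). Cpox and Ppox, the oxidases of the mitochondrial end of the chain, were at -0.05 ± 0.06 and 0.03 ± 0.08. The groups did not overlap for 5 of the 8, 3 higher and 2 lower, against 69.2% of all genes, 50.1% higher and 19.1% lower. Nothing is read from this share about the enzymes, since this contrast was in view when they were chosen.

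**Figure D1:**
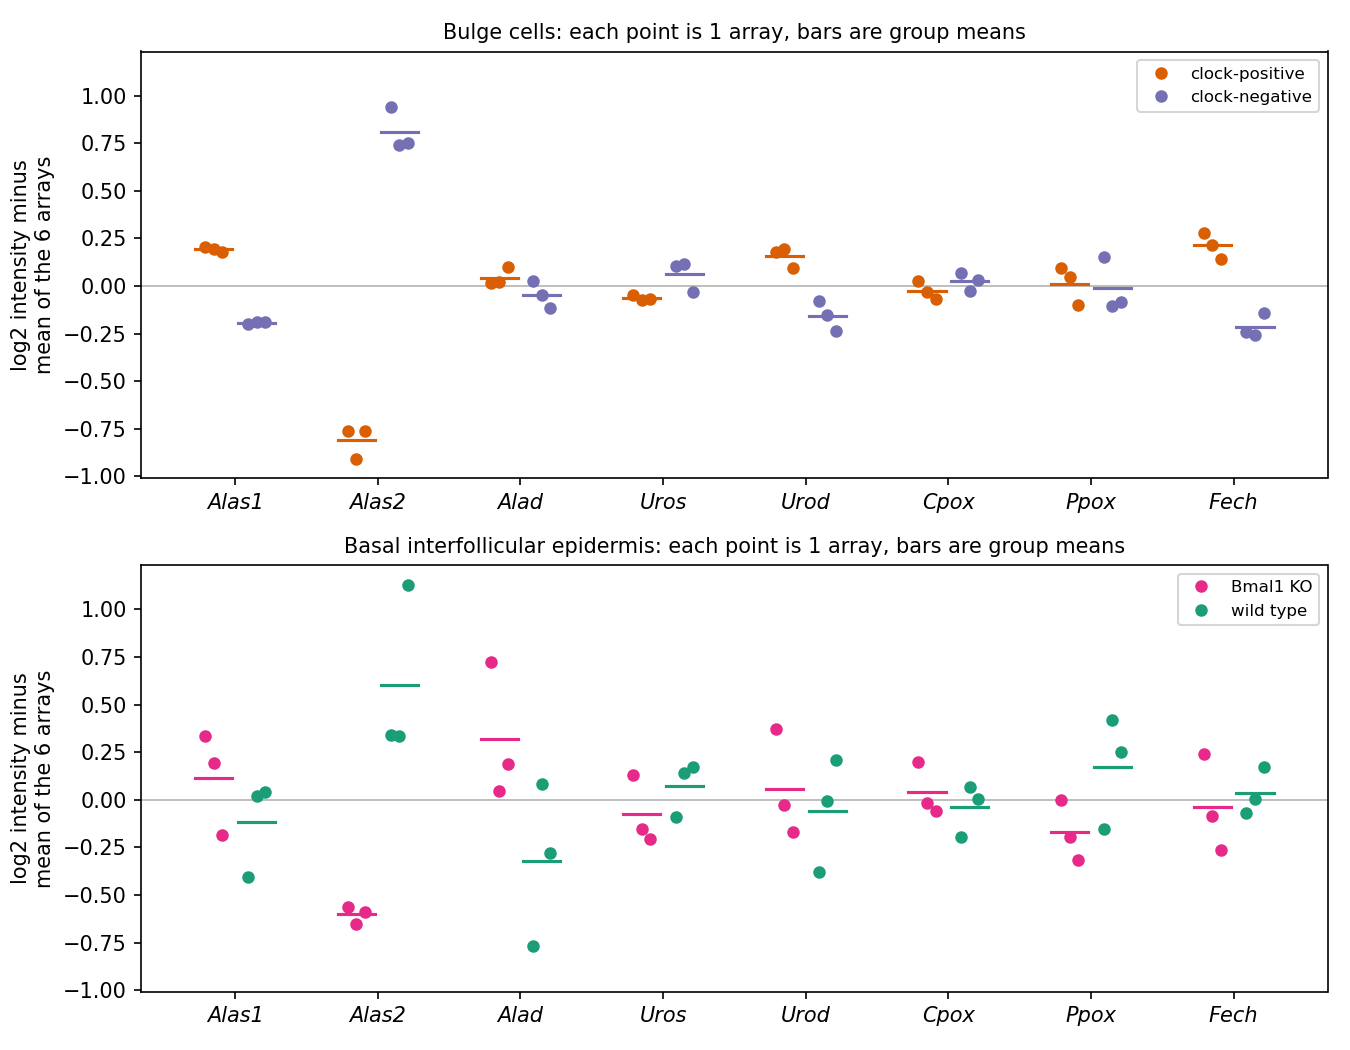
Log2 intensity of each heme synthesis gene on every array, minus that gene's mean over the 6 arrays of its set, for bulge cells (top) and basal interfollicular epidermis (bottom); points are arrays and bars are group means. Alas2 parts the groups in both sets, lower in clock-positive bulge cells and lower in Bmal1 KO epidermis, while the other genes of the epidermis set overlap between genotypes.

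All genes together leaned upward in clock-positive cells, which bears on the smaller differences. The median change of all genes was 0.15, and relative to it Alas1 stood at 0.24, Fech at 0.28, Urod at 0.16 and Alas2 at -1.77, while Alad (-0.06), Ppox (-0.12), Cpox (-0.20) and Uros (-0.27) stood below it. Of all genes 63.5% passed an adjusted p under 0.05 in limma. Of these 6311 were higher (45.2% of all genes) and 2555 lower (18.3%) as deposited, against 8928 and 1355 after centring each array on its median. The median of all genes was then 0.29, against 0.07 after quantile normalization and 0.04 after cyclic loess. Alas1, Fech and Urod kept a positive sign and Alas2 a negative one under these 3 scalings. Alas1 ran from 0.18 after cyclic loess to 0.53 after median centring, Fech from 0.25 to 0.57, Urod from 0.12 to 0.45 and Alas2 from -1.79 to -1.48. Alad and Ppox turned negative after quantile normalization (-0.10 and -0.14) and cyclic loess (-0.14 and -0.18). Cpox and Uros turned positive after median centring, to 0.09 and 0.02, and Cpox was otherwise lower, at -0.24 and -0.28 after quantile normalization and cyclic loess.

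**Figure D2:**
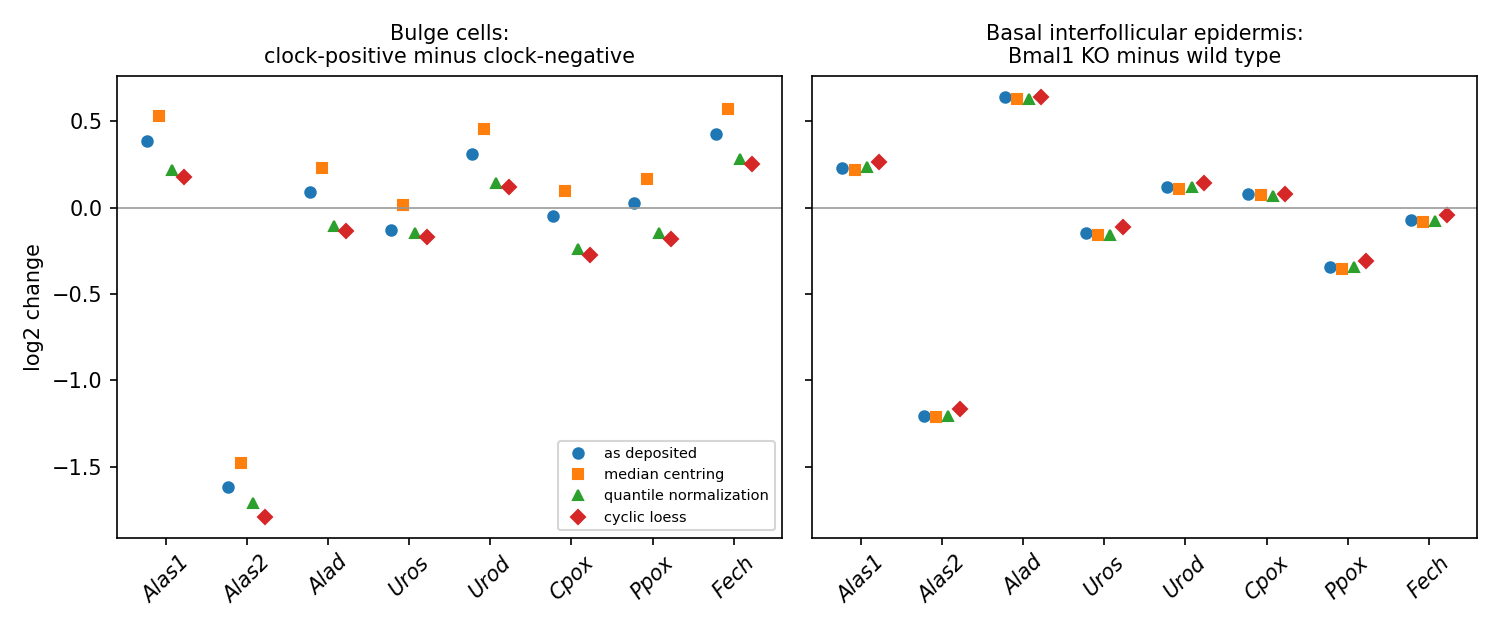
Log2 change of each heme synthesis gene under 4 scalings of the arrays, clock-positive minus clock-negative bulge cells (left) and Bmal1 KO minus wild-type epidermis (right); each symbol is 1 scaling. In the bulge set the signs of Alad, Ppox, Cpox and Uros depend on the scaling and those of the other genes do not; in the epidermis set no sign changes and Alas2 stays between -1.21 and -1.17.

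In the epidermis the largest difference of the heme genes was again in Alas2, which was lower in the Bmal1 KO. It gave 8.04, 7.95 and 8.02 in KO arrays 1 to 3 and 8.94, 8.94 and 9.73 in wild-type arrays 1 to 3. The KO arrays were all below the wild-type arrays, and wild-type array 3 stood well above the other two, so that the SD was 0.044 in the KO and 0.458 in the wild type. The difference was 2.30-fold (log2 change -1.20 ± 0.21, SE, n = 3 per group; 95% interval -1.68 to -0.73). It missed the threshold over all genes (limma adjusted p = 0.0882; unadjusted p = 3.92e-04, rank 62 of 13956). By size it was the 26th largest of 7471 falls. The adjusted p ran from 8.64e-04 to 0.401 over the alternatives tried. It passed in 3 of 15 of them: without wild-type array 1 (adjusted p = 0.0352), when the dimmest 50% of genes were dropped (0.0472) and with the spread taken from all 12 arrays (8.64e-04). The change stayed negative in all 15, from -1.34 to -0.94, the smallest being that without wild-type array 3. Only the scalings and leaving out an array could move it, and the other alternatives leave it at -1.20 by design.

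Alas1 did not separate the genotypes. It gave 9.40, 9.26 and 8.89 in KO arrays 1 to 3 and 8.66, 9.09 and 9.11 in wild-type arrays, a difference of 0.23 ± 0.17 (adjusted p = 0.889). The 95% interval ran from -0.17 to 0.63. This difference is KO minus wild type, while the 0.39 of the bulge sorts is clock-positive minus clock-negative. Like signs in the 2 sets therefore do not mean a like direction with respect to the clock. The within-group SD of Alas1 was 0.260 here, above that of 82.7% of genes.

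Alad had the largest positive difference, 0.64 ± 0.24 (95% interval 0.08 to 1.20, adjusted p = 0.514). KO arrays 1 to 3 gave 11.54, 10.86 and 11.004 and wild-type arrays 10.05, 10.90 and 10.54. Wild-type array 2 lay above KO array 2, so the groups overlapped. Ppox pointed the other way at -0.34 ± 0.16 (-0.72 to 0.03, adjusted p = 0.689), with 9.03, 8.83 and 8.72 in the KO and 8.88, 9.45 and 9.28 in the wild type. Only wild-type array 1 fell within the range of the KO arrays.

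The other 4 enzymes differed by less than their spread. Uros was at -0.15 ± 0.13, Urod at 0.12 ± 0.19, Cpox at 0.08 ± 0.12 and Fech at -0.07 ± 0.15, with adjusted p from 0.912 to 0.979. The sign of Urod turned without KO array 1 (-0.04) or wild-type array 1 (-0.04), and that of Fech without KO array 3 (0.04). Thus 0 of the 8 genes passed the threshold in limma, where 0.193% of all genes did (27: 11 higher, 0.0788%, and 16 lower, 0.115%; 44 higher and 41 lower after cyclic loess). At an unadjusted p under 0.05 there were 2, Alas2 and Alad, against 7.96% of all genes. Alas2 was the 1 gene of the 8 whose groups did not overlap, against 12.7% of all genes, 4.11% higher and 8.56% lower. By size, 38 genes (0.272%) changed by more than Alas2 in either direction. The median change was 0.0037 over the 8 genes and -0.01 over all genes.

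**Figure D3:**
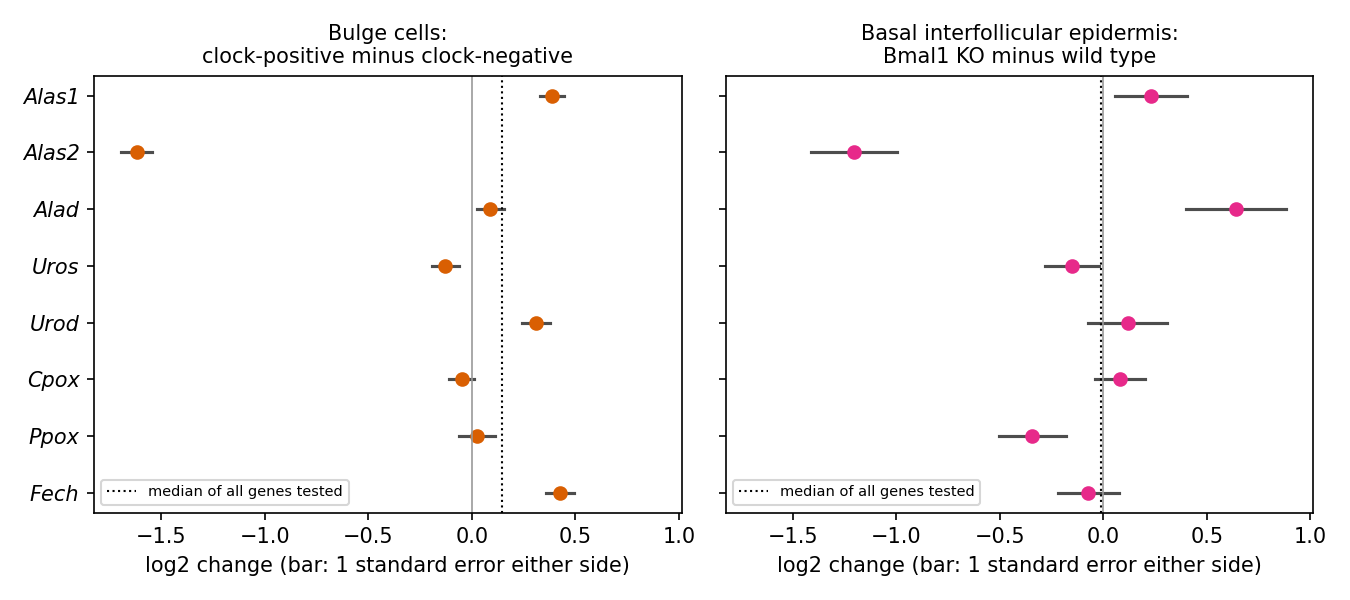
Log2 change of each heme synthesis gene with 1 standard error of the fit on either side, for clock-positive minus clock-negative bulge cells (left) and Bmal1 KO minus wild-type epidermis (right); the dotted line is the median change of all genes tested. Alas2 stands at -1.62 in bulge and -1.20 in epidermis, and the standard errors are wider in the epidermis set.

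Single arrays of the epidermis set stood at the ends for several enzymes at once. KO array 1 was the highest of the 6 arrays for 5 of the 8 genes (Alas1, Alad, Urod, Cpox and Fech), and wild-type array 1 was the lowest for 4 of them (Alas1, Alad, Urod and Cpox). KO array 3 was the lowest for Uros, Ppox and Fech. The same arrays led over all genes tested: KO array 1 was the highest for 40.3%, wild-type array 1 the lowest for 34.7% and KO array 3 the lowest for 32.2%. Alas2 did not follow this order, with its highest value on wild-type array 3 (the highest for 19.1% of all genes) and its lowest on KO array 2 (10.8%). Ppox was highest on wild-type array 2 (12%).

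The level of Alas2 was set beside markers of the cells that could carry it. In bulk samples fewer cells of a type and less RNA per cell cannot be told apart. Of 26 red blood cell and erythroid precursor genes measured, Alas2 left out, 14 passed the dim filter in the epidermis set. Of these 0 passed the threshold, where 0.193% of all genes did. The mean over the 26 genes ran from 6.85 to 6.95 in KO arrays and from 6.87 to 6.96 in wild-type arrays, so the genotypes overlapped. Klf1, an erythroid transcription factor, and the embryonic globins Hbb-bh1 and Hbb-y lay below the dim limit in both sets. The embryonic globin Hba-x was at 7.18 in the KO and 7.38 in the wild type (-0.20 ± 0.10, adjusted p = 0.726, no overlap), and Slc4a1, the anion exchanger of the red cell membrane, at 7.59 and 7.66. Bpgm, which makes the bisphosphoglycerate that tunes hemoglobin, was the exception in size, at -0.62 ± 0.12 with no overlap (9.64, 9.39 and 9.53 against 9.99, 10.11 and 10.32; adjusted p = 0.146). Probe sets of the adult globins carry several symbols and were not analysed here.

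In the bulge set 15 of the 26 passed the dim filter, and 8 fell and 1 rose in clock-positive cells, where 18.3% of all genes fell and 45.2% rose. The 8 were Hba-x, Gata1, Epor, Slc4a1, Ank1, Ermap, Gfi1b and Bpgm. After median centring, quantile normalization or cyclic loess 2 fell and 1 rose. Those that fell were Hba-x and Slc4a1 after median centring, and Slc4a1 and Bpgm after the other scalings. Slc4a1 fell by 0.78 ± 0.07, Hba-x by 0.33 ± 0.08 and Bpgm by 0.36 ± 0.09, while Tmcc2 rose by 0.56 ± 0.07. Each of these changes was smaller than that of Alas2. The mean over the 26 genes ran from 6.25 to 6.33 in clock-positive and from 6.49 to 6.60 in clock-negative arrays.

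T cell genes fell with Alas2 in clock-positive bulge cells, and in the epidermis as deposited none passed the threshold on the side of Alas2. After cyclic loess Cd3g passed there as lower. The T cell genes that passed in the epidermis, in either direction, numbered 2 with the dimmest 50% of genes dropped. They numbered 2 with an intensity trend and 4 with all 12 arrays in 1 fit. In bulge cells all 7 of the 9 measured T cell genes that passed the dim filter fell, where 18.3% of all genes fell. The list mean over the 9 ran from 6.95 to 6.98 in clock-positive and from 7.78 to 7.84 in clock-negative arrays. In the epidermis 5 passed the filter. Thy1, a surface protein also found outside T cells, rose by 1.19 ± 0.12 (adjusted p = 0.0155), while Cd3g (-2.66 ± 0.42, adjusted p = 0.0663), Cd3e (-1.33 ± 0.29, adjusted p = 0.187), Cd7 (-1.22 ± 0.33, adjusted p = 0.302) and Cd247 (-0.26 ± 0.11, adjusted p = 0.623) missed the threshold with every KO array below every wild-type array. The list mean ran from 7.45 to 7.53 in KO and from 7.67 to 8.56 in wild-type arrays. Wild-type arrays 1 and 2 both gave 8.94 for Alas2. Their Cd3g was 8.53 and 10.26 and their T cell list mean 7.67 and 8.40. Wild-type array 3 was the highest for Alas2 (9.73) and for the T cell list mean (8.56). Whether Alas2 and the T cell genes are linked was not tested.

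Differentiation and myeloid genes also fell in clock-positive bulge cells. In the epidermis most of them had a negative change too, lower in the KO, but none passed as deposited. The list means overlapped between genotypes only through wild-type array 1. In bulge cells 5 of 8 differentiation genes fell, where 18.3% of all genes fell. Among them were the cornified envelope genes Lce1b and Lor, at -1.89 ± 0.09 and -1.17 ± 0.06. The list mean was 10.56 in each clock-positive array and from 11.36 to 11.37 in clock-negative ones. In the epidermis 0 of 8 passed, and all 8 changes were negative, with a median of -0.38 against -0.01 over all genes. The groups did not overlap for 3 of the 8, against 8.56% of all genes on that side. The list mean ran from 9.49 to 9.73 in KO and from 9.71 to 10.46 in wild-type arrays. Of the myeloid genes that passed the filter 7 of 9 fell and 1 rose in bulge cells, against 18.3% and 45.2% of all genes. In the epidermis 0 of 8 passed the threshold and 7 changes were negative, with a median of -0.83. The groups did not part for any of the 8. The list mean ran from 6.89 to 6.98 in KO and from 6.98 to 7.99 in wild-type arrays. Other lists went the opposite way to Alas2 in bulge cells. Of 10 bulge markers 9 rose and of 10 endothelium markers 9 rose, where 45.2% of all genes rose. The bulge list mean ran from 10.395 to 10.41 in clock-positive and from 9.37 to 9.47 in clock-negative arrays. The endothelium list mean ran from 8.31 to 8.35 against 7.91 to 7.99. Itga6, the alpha6 integrin gene of the bulge list, passed as lower in clock-positive cells after quantile normalization and cyclic loess. In the epidermis 0 of 8 and 0 of 4 passed, where 0.193% of all genes did. Without wild-type array 1 more of these genes passed: 4 of the T cell list, 4 of the myeloid list and 2 of the differentiation list. The 1 T cell gene became 0 without each of the KO arrays in turn. The part of any of these cell types in the Alas2 result was not tested.

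**Figure D4:**
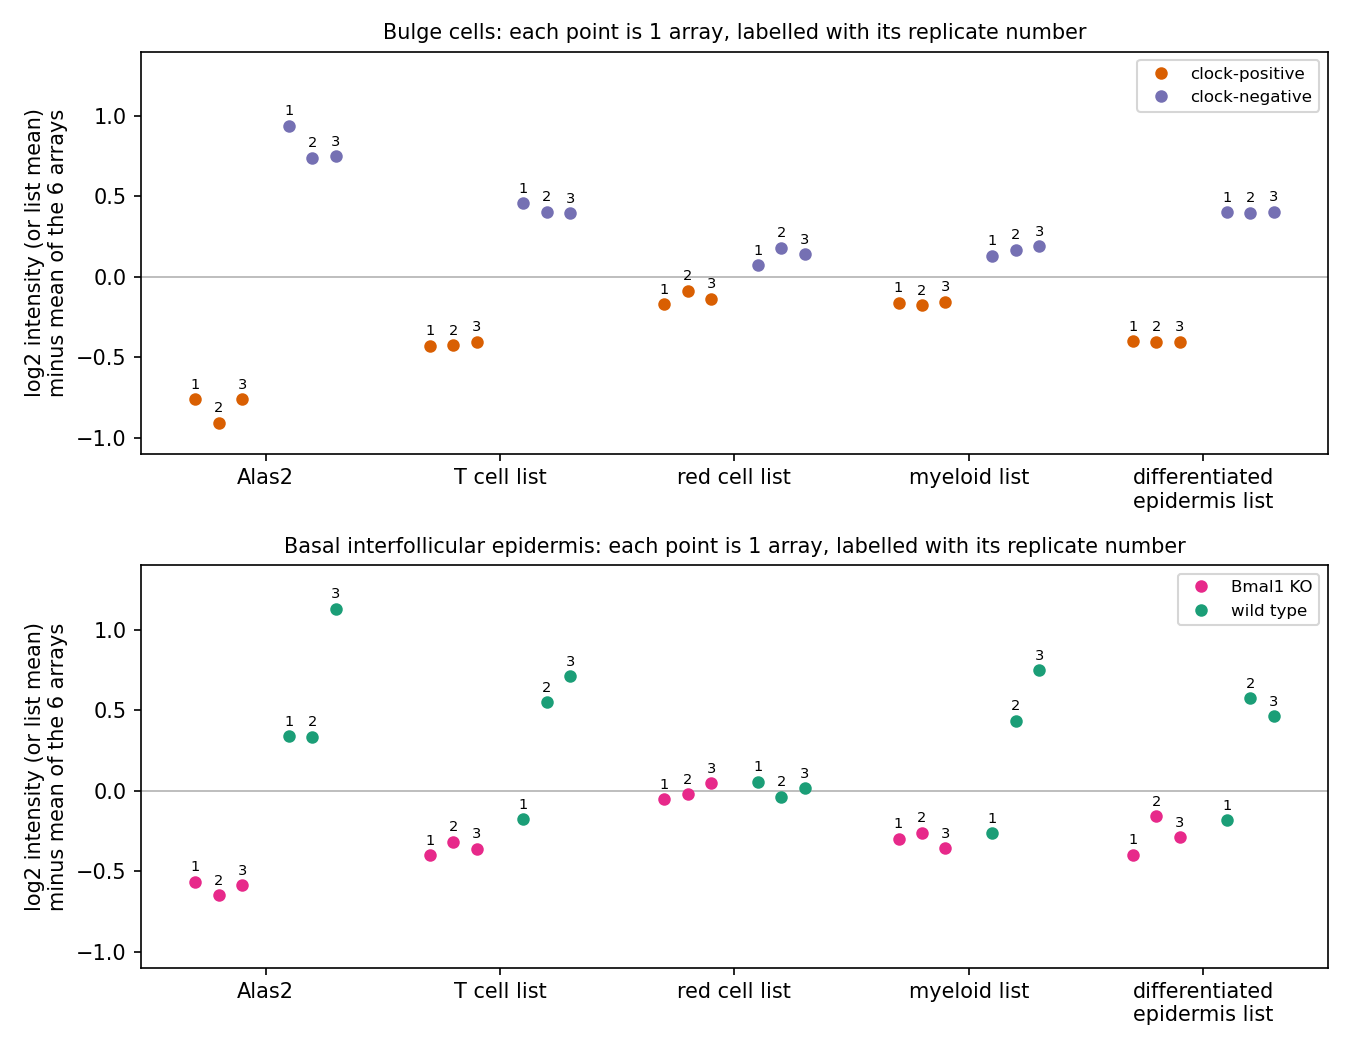
Alas2 beside the mean log2 intensity of 4 marker lists on every array, for bulge cells (top) and epidermis (bottom). Each value is minus its mean over the 6 arrays of the set. Numbers are replicate labels, which do not say whether equal numbers mark paired samples. In the epidermis the red cell list, in which 12 of 26 genes are dim, overlaps between genotypes. Wild-type array 1 lies near the KO arrays for the T cell, myeloid and differentiation lists, and beside wild-type array 2 for Alas2. Wild-type array 3 is the highest for Alas2 and for the T cell and myeloid lists.

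The genes whose values followed each synthase most closely were found over all 12 arrays, after the mean of each set was taken off. These correlations hold the differences between the groups as well as the spread within them and are given as a description. For Alas2 they were the cytotoxic granule gene Nkg7 (Pearson r = 0.96, Spearman rho = 0.87), the epidermal gene Crct1 (0.95, 0.95), the T cell surface gene Cd7 (0.95, 0.88), the filaggrin relative Flg2 (0.94, 0.90) and Cd247, a signalling chain of the T cell receptor (0.94, 0.91). None of the 5 stands in the red cell list. For Alas1 they were the ephrin gene Efnb1 (0.98, 0.95), Rnf44 (0.98, 0.90), Cggbp1 (0.98, 0.95), Cenpv (0.98, 0.88) and Prkcsh (0.98, 0.91). All 5 had bulge changes between 0.37 and 0.47, beside 0.39 for Alas1, and epidermis changes between 0.14 and 0.28.

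Of 13100 genes tested in both sets 10 (0.0763%) were lower by at least 1 on the log2 scale both in clock-positive bulge cells and in the KO epidermis, a limit set after the values were seen. Beside Alas2 they were Cd3e, Cd3g, Cd7, Ctsw and Nkg7, genes of T cells and other cytotoxic lymphocytes, and Flg2, Lce1a2, Lce1b and Lor, genes of cornified epidermis. The groups of both sets were apart in this direction for 286 genes (2.18%). For Alas2 the bulge side of both counts is the value taken as the one the heme genes were selected on. Its place among these genes is therefore a description.

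Clock genes and other factors known to act on Alas1 differed between the genotypes in 2 members of their list. Of 13 tested 2 fell, the clock repressors Nr1d1 (-3.98 ± 0.12, adjusted p = 1.08e-05) and Nr1d2 (-2.22 ± 0.11, adjusted p = 1.73e-04), and 0 rose, under each of the 4 scalings. As deposited 0.115% of all genes fell and 0.0788% rose. Ppargc1a, a coactivator of Alas1 transcription that NR1D1 represses, was at 0.27 ± 0.15 (adjusted p = 0.742), Nrf1 at -0.13 ± 0.13 and Foxo1 at 0.24 ± 0.15 (adjusted p = 0.810). In bulge cells 6 of 12 rose and 0 fell, where 45.2% of all genes rose. They include Per1 (0.51 ± 0.07), whose promoter drives the sorted reporter, Clock (0.36 ± 0.09), Gabpa (0.31 ± 0.10) and Foxo1 (0.20 ± 0.07). After median centring 11 rose, after quantile normalization 2, and after cyclic loess 2 rose and 1 fell. The 6 that passed became 3 without clock-positive array 1, clock-positive array 2 or clock-negative array 2, and 2 without clock-positive array 3 or clock-negative array 3. Nr1d1 was at 0.08 ± 0.06 in bulge cells (adjusted p = 0.298).

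The other genes that feed the pathway with substrate, iron or carriers rose in part in clock-positive bulge cells. None passed the threshold in the KO, where 0.193% of all genes did. Of 10 such genes tested 6 rose in bulge cells, where 45.2% of all genes rose, led by Slc25a38, the mitochondrial carrier of glycine for ALAS (0.42 ± 0.08), Sucla2, a subunit of a succinyl-CoA ligase (0.31 ± 0.09), Clpx, the unfoldase that activates ALAS (0.23 ± 0.07), and Fam210b (0.23 ± 0.08). After median centring 8 rose, after quantile normalization 1 rose and 1 fell, and after cyclic loess 1 rose and 2 fell. The 6 that passed became 3 without clock-positive array 3 and 2 without clock-negative array 2 or clock-negative array 3. In the epidermis 0 of 10 passed. Fam210b was at -0.41 ± 0.18 (adjusted p = 0.610), the mitochondrial iron importer Slc25a37 at -0.31 ± 0.16, Tmem14c, which moves porphyrinogens, at 0.27 ± 0.19 and Slc25a39 at 0.28 ± 0.20.

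Of 15 genes of heme breakdown and transport tested, 9 rose and 2 fell in clock-positive cells, where 45.2% of all genes rose and 18.3% fell. The counts were 12 and 2 after median centring, 5 and 2 after quantile normalization and 5 and 3 after cyclic loess. Abcg2, an exporter of porphyrins, rose by 0.64 ± 0.08. The biliverdin reductases Blvra and Blvrb rose by 0.51 ± 0.08 and 0.42 ± 0.06, and Bach1, the heme-sensing repressor, by 0.43 ± 0.07. Hpx, the plasma heme carrier hemopexin, fell by 0.44 ± 0.08 and Flvcr2 fell by 0.48 ± 0.09. Hmox1, the inducible heme oxygenase, was at 0.14 ± 0.07 (adjusted p = 0.0798). In the epidermis 0 of 15 passed, where 0.193% of all genes did. Abcg2 was nearest, with 9.72, 9.53 and 9.81 in KO arrays and 9.31, 9.14 and 9.11 in wild-type arrays, a difference of 0.50 ± 0.12 (adjusted p = 0.211) with no overlap, and Hebp1, a heme-binding protein, was at 0.36 ± 0.14 (adjusted p = 0.511).

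In bulge cells 11 of 18 genes of iron uptake and storage rose and Hfe fell, beside 45.2% and 18.3% of all genes. There were 15 higher and 0 lower after median centring, 11 higher and 0 lower after quantile normalization and 9 and 0 after cyclic loess. Steap4, a metalloreductase, rose by 0.87 ± 0.08, the ferritin light chain Ftl1 by 0.65 ± 0.10, the ferritin receptor Ncoa4 by 0.46 ± 0.08 and Fbxl5, the iron-sensing ubiquitin ligase subunit, by 0.36 ± 0.07. Tfrc, the transferrin receptor, was at 0.10 ± 0.06 (adjusted p = 0.194). Of 11 iron-sulfur assembly genes 8 rose, among them the cysteine desulfurase Nfs1 (0.47 ± 0.06) and the cochaperone Hscb (0.50 ± 0.08), with 10 after median centring, 4 after quantile normalization and 3 after cyclic loess; 5 passed without clock-positive array 2. In the epidermis 0 of 16 and 0 of 11 passed, where 0.193% of all genes did. Heph was at -0.34 ± 0.16, Tfrc at -0.06 ± 0.20, and the ferredoxin Fdx1 at 0.39 ± 0.15 (adjusted p = 0.514) with no overlap.

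Among proteins that carry heme or handle its variants, 11 of 24 rose and 1 fell in bulge cells, close to the 45.2% of all genes that rose. Cyba, the light chain of cytochrome b558, rose by 0.73 ± 0.08, Cyb5r3, which reduces cytochrome b5, by 0.45 ± 0.06, catalase (Cat) by 0.40 ± 0.06 and the sterol demethylase Cyp51 by 0.46 ± 0.08, while Mb fell by 0.17 ± 0.06. After median centring 16 rose and 0 fell, after quantile normalization 6 and 1, and after cyclic loess 6 and 2. In the epidermis 0 of 22 passed as deposited, where 0.193% of all genes did, and 1 after cyclic loess. Ptgs2, the inducible prostaglandin synthase, was nearest, with 9.89, 9.87 and 9.83 in KO arrays and 9.07, 9.41 and 9.34 in wild-type arrays (0.59 ± 0.12, adjusted p = 0.141).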

How the data were processed

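Gene expression was measured on 12 Affymetrix mouse arrays, 3 per group. RMA is the tool that the submitters' processing notes name, with no version or settings, and the values they deposited are log2 intensities. Bulge arrays have values for 34760 probe sets and epidermis arrays for 28853, of which 28101 are shared. Of 35512 probe sets, 21789 carry 1 symbol in the platform annotation, 1621 several and 12102 none listed; only the first kind was used. Entrez identifiers of 21698 probe sets, all 8 heme genes among them, matched RefSeq (GRCm38.p6), which changed 0 symbols. A gene with several probe sets was read by one measured on all 12 arrays, then by that with the highest mean.

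Each comparison was fitted on its own 6 arrays with limma 3.58.1 (lmFit and eBayes, two-sided) in R 4.3.3, after the dimmest 30% of genes were left out, with Benjamini-Hochberg adjustment over 13956 genes and a threshold of 0.05. The script was tested on simulated data. The heme genes, the lists and their tests were chosen with earlier results of these data known. Named were the 8 genes, up to 4 genes of each list with the smallest p, globins, Arntl, Per1 and Nr1d1. The 5 genes most correlated with Alas1 and with Alas2 were also named. Klf1, Hmox1, Tfrc, the markers of the labelled cells, Slc4a1, Hfe, Nrf1, Mb, and in the epidermis Ppargc1a and Foxo1, were named after their values were seen. So were the other red cell genes listed as lower in bulge cells. Mice were pooled before hybridisation, and p-values measure the spread between pools. Alternatives were the scaling, the filter, the source of the spread, an intensity trend, the mean of probe sets, the replicate block and leaving out each array.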

Additional observations from a re-analysis of the deposited data

How the results depend on the processing

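Of the 120 changes of single heme genes recomputed in the epidermis set, 114 kept their direction and their side of the threshold; the exceptions were the 3 passes of Alas2 and the turned signs of Urod (-0.040 without KO array 1, -0.043 without wild-type array 1) and Fech (0.041 without KO array 3), whose cause was not tested; leaving out each array in turn gave -0.043 to 0.25 for Urod and -0.21 to 0.041 for Fech. In the epidermis 1 heme gene, Alas2, passed when the dimmest 50% of genes were dropped and with all 12 arrays in 1 fit, and leaving out each array gave 0 to 1. The 27 genes that passed over all genes became 16 with no filter, 47 with the lowest 50% left out, 49 after quantile normalization, 85 after cyclic loess, 373 with all 12 arrays in 1 fit and 57 with an intensity trend. Leaving out 1 array gave 16 (KO 1), 7 (KO 2), 8 (KO 3), 103 (wild type 1), 8 (wild type 2) and 16 (wild type 3). In the bulge set 8866 of all genes became 5809 after quantile normalization, 5739 after cyclic loess and 4831 with all 12 arrays in 1 fit. There 99 of 120 changes of single heme genes moved by less than 1 SD, and the 21 others all came from the 3 scalings. In both sets only the scalings and leaving out an array can move these changes. The filter, the source of the spread, the intensity trend, the mean of probe sets and the block leave them as they were, since each gene has 1 probe set. Counts of the marker and pathway lists stayed within 1.5 times in 181 of 225 cases in bulge and 209 of 225 in epidermis. Most of the epidermis cases are a count of 0 that stayed 0 and say little about stability. As deposited only the T cell list (1) and the list of factors acting on Alas1 (2) held any gene past the threshold there. The T cell count ran from 0 to 4 over the alternatives. With the replicate number as a block, 9351 of all genes passed in bulge and 3 in epidermis. In epidermis 0 of the heme genes did. The labels do not say whether a number marks a shared litter or day. Deviations of same-numbered arrays correlated at 0.24, 0.26 and -0.061 in bulge and at -0.44, 0.043 and -0.52 in epidermis. With so few arrays these values cannot settle whether the numbers pair samples.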
